A study of Mus musculus with 8 samples.

Results

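The genes described here encode 8 enzymes of the pentose phosphate pathway or of NADPH supply in the cytosol. They are G6pdx, Pgls, Pgd, Tkt, Taldo1 and Rpia of the pathway, not all of which form NADPH themselves, together with Idh1 and Me1. They were listed by symbol, and an array probe was taken for a gene when the transcript accession of the probe mapped to that symbol. A probe was found for 7 of the 8 genes, and each of those probes was well above background on all 8 arrays. No probe carried a matching accession for Rpia (ribose-5-phosphate isomerase), so it is named without a value. The 7 measured genes stood among 14137 genes tested, out of 18749 genes with a probe.

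Total RNA was taken from the No. 4 mammary glands of female mice on lactation day 1, all of the C57/Bl6 strain background. The dams were 4 wild-type mice (WT) and 4 mice without Th-POK (KO). Each dam supplied 1 single-colour Agilent mouse array, and the arrays are named by genotype and replicate number (WT1 to WT4, KO1 to KO4). Th-POK is a transcription factor encoded by Zbtb7b, and the comparison asks how the transcripts of the gland differ without it when milk secretion begins. The dams were age-matched and fed standard chow, and their ages are not stated in the labels or the methods. Neither source limits the deletion to a cell type, so a KO gland came from a dam in which tissues other than the mammary epithelium carried the deletion as well.

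The pentose phosphate pathway leaves glycolysis at glucose 6-phosphate. Its oxidative branch reduces NADP to NADPH while making a pentose phosphate, and its non-oxidative branch turns pentose phosphates back into glycolytic sugars or supplies ribose for nucleotides. The lactating rodent mammary gland makes much of its milk fat from glucose, and fatty acid and sterol synthesis consume NADPH, so this pathway, cytosolic malic enzyme and cytosolic isocitrate dehydrogenase are known as the sources of reducing power for lipogenesis.

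The Zbtb7b probe was well above background on all 4 WT arrays (log2 signal 9.90 to 10.42) and on 0 of the 4 KO arrays, where it was at least 81.5-fold lower (limma, Benjamini-Hochberg adjusted p = 5.71e-09). Between 67.1% and 75.6% of spots were well above background on each array. Each slide carried the arrays of a single genotype, so slide and genotype cannot be told apart in any difference below. Signals are log2 of the background-corrected intensity after quantile normalization between arrays, so a difference of 1 is a doubling. A gene was called when its limma p, adjusted by the Benjamini-Hochberg method over all genes tested, was under 0.05. Across all genes, the deviations of arrays from their genotype means were weakly correlated between arrays of the same replicate number (r = 0.16 to 0.30). Each member's difference is therefore also given with the replicate number as a block, that is, as the mean of the 4 differences within pairs. Where the difference of another gene is given without the block, that gene was called or not called alike in both fits. The labels do not say what a shared number stands for.

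Of the 7 measured enzymes, 6 had lower mean signals in KO than in WT glands, and Idh1 had a higher one. The median log2 difference of the 7 (KO minus WT) was -0.37, against -0.02 over all 14137 genes. Pgls was called lower, as were 8.96% of all genes. No member was called higher, against 7.53% of all genes. Idh1 was higher at an unadjusted p under 0.05, it was called higher when the background was corrected by normexp, and the methods' t-test called no member higher. With the replicate block, G6pdx, Pgd and Tkt were called lower, as were 10.8% of all genes, and again no member was called higher, against 8.75% of all genes. Pgls was not called in the blocked fit. In these whole glands, fewer cells of a type and less RNA per cell cannot be told apart.

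Within pairs of the same replicate number, 5 members (G6pdx, Pgls, Pgd, Tkt and Me1) were lower in KO in all 4 pairs, a pattern that 25.6% of all genes shared. Idh1 was higher in KO in all 4 pairs, as were 22.1% of all genes. Taldo1 differed in sign between pairs. The genotypes did not overlap for 2 members. Every KO array was below every WT array for Pgls (12.9% of all genes), and every KO array was above every WT array for Idh1 (11.1% of all genes).

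**Figure D1:**
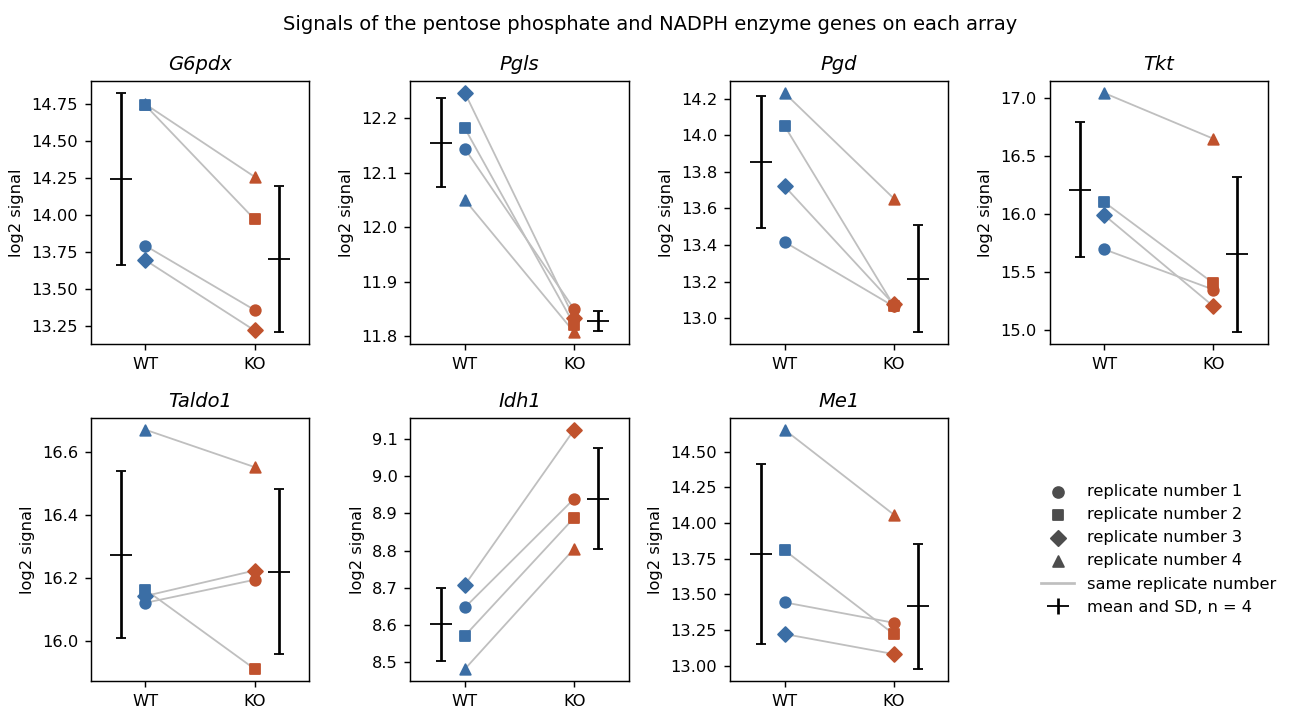
Log2 signal of the 7 measured enzymes on each WT (blue) and KO (orange) array, 1 panel a gene, each with its own vertical scale; symbols mark the replicate number, grey lines join arrays of the same number, and black bars give the mean and SD of 4 arrays. Lines slope down for G6pdx, Pgls, Pgd, Tkt and Me1, up for Idh1 and both ways for Taldo1, and the replicate number 4 arrays stand highest for G6pdx, Pgd, Tkt, Taldo1 and Me1.

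The RefSeq start site windows of the members (GRCm38.p6, 250 bases before to 50 after a start site) were searched for known elements of this pathway. The sequences of G6pdx, Pgd, Tkt and Me1 are shown because these genes varied together from array to array, as described further on. Each line gives 250 bases before the start site and the first 20 after it, 5′ to 3′ on the strand of the gene. Capitals mark matches, on either strand, to the antioxidant response element TGANNNNGC, the site bound by the oxidative stress factor NRF2, and the stretch of Pgd holds none. The stretches are chrX:74428861-74429130 (minus strand) for G6pdx, chr4:149166686-149166955 (minus strand) for Pgd, chr14:30548881-30549150 (plus strand) for Tkt and chr9:86695895-86696164 (minus strand) for Me1.
G6pdx: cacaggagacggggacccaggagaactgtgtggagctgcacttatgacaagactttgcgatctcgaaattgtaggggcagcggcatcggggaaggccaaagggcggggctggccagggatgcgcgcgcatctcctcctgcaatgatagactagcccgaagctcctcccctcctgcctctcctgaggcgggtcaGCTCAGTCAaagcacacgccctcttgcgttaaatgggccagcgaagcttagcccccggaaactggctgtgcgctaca
Pgd: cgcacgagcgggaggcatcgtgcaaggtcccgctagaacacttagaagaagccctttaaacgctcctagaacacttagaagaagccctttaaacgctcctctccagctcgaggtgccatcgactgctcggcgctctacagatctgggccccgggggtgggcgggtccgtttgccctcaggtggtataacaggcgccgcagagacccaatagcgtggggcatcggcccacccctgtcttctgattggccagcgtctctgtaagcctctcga
Tkt: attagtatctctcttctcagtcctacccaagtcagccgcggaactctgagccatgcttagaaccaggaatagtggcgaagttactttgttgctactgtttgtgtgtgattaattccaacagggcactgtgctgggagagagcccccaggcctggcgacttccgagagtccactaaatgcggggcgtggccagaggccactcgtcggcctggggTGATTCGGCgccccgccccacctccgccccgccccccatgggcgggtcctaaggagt
Me1: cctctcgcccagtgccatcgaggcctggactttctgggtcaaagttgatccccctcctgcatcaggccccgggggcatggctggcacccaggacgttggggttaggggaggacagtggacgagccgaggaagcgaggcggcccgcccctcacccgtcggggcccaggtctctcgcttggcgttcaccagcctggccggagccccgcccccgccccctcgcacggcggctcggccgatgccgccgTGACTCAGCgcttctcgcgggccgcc

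The table held 11 windows for the 8 members, with a second window for Pgd, Idh1 and Me1. TGANNNNGC was found in 6 windows, 1 for each of G6pdx, Pgd, Tkt, Taldo1, Idh1 and Me1, and in 41.3% of all 32851 windows. Its stricter form TGACNNNGC, which is contained in the looser one, was found for G6pdx (GCTCAGTCA, the minus-strand match, first base at -57), for Me1 (TGACTCAGC, at -6) and for Pgd in its second window (TGACATTGC, at 4 after the start site), and in 12.4% of all windows. The match of Tkt (TGATTCGGC, at -37) was of the looser form alone. The windows of Pgls and Rpia held no such letters. The GC box GGGCGG was found for all 8 members, in 9 windows, and in 35.7% of all windows. The sterol regulatory element TCACNCCAC (1.24% of all windows) and the E-box CACGTG (7.15%) were found in 0 of the 11. The looser element was found both for Idh1, which stood higher in KO, and for members that stood lower. Binding at these letters and any part of it in the differences were not tested.

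G6pdx encodes glucose-6-phosphate dehydrogenase, the entry and rate-limiting enzyme of the oxidative branch. Its log2 signal was 13.79, 14.74, 13.69 and 14.75 on WT1 to WT4 and 13.36, 13.97, 13.22 and 14.26 on KO1 to KO4. Numbers 2 and 4 were high and numbers 1 and 3 low in both genotypes, and the genotypes overlapped. The mean was 14.24 ± 0.58 in WT and 13.70 ± 0.50 in KO (SD, n = 4 each), a difference of -0.54 (SE 0.33, limma adjusted p = 0.265), or a WT signal 1.46-fold that of KO. The 4 pair differences were -0.44, -0.77, -0.48 and -0.49. With the block the SE was 0.11 and G6pdx was called lower (limma adjusted p = 0.0276).

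Pgls encodes 6-phosphogluconolactonase, which opens the lactone that glucose-6-phosphate dehydrogenase makes. Its log2 signal was 12.14, 12.18, 12.25 and 12.05 on WT1 to WT4 and 11.85, 11.82, 11.83 and 11.81 on KO1 to KO4. All KO arrays lay below all WT arrays with a gap of 0.20, and Pgls had the smallest spread of the 7 within KO. The mean fell from 12.16 ± 0.08 to 11.83 ± 0.02 (SD, n = 4 each), a difference of -0.33 (SE 0.09, limma adjusted p = 0.0385), or 1.25-fold. The pair differences were -0.29, -0.36, -0.41 and -0.24, and with the block the SE was 0.10 and the adjusted p 0.0618. The call was held by a narrow margin. It was lost when WT2, WT3, KO1, KO2, KO3 or KO4 was left out (limma adjusted p = 0.0942, 0.0939, 0.0825, 0.0866, 0.0992 and 0.0627), while the difference stayed between -0.36 and -0.30 in all 8 fits that leave out 1 array.

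Pgd encodes 6-phosphogluconate dehydrogenase, the enzyme of the second NADPH-forming step. Its log2 signal was 13.42, 14.05, 13.72 and 14.23 on WT1 to WT4 and 13.06, 13.07, 13.08 and 13.65 on KO1 to KO4. KO1 to KO3 lay together below all WT arrays, and KO4 lay within the WT range. The mean was 13.86 ± 0.36 in WT and 13.22 ± 0.29 in KO (SD, n = 4 each), a difference of -0.64 (SE 0.21, limma adjusted p = 0.0668), or 1.56-fold. This was the largest difference in size among the 7 members. The pair differences were -0.35, -0.98, -0.65 and -0.58, and with the block Pgd was called lower (SE 0.13, limma adjusted p = 0.0298). The other probe of Pgd, A_51_P391996, gave a difference of -0.71 (SE 0.27, limma adjusted p = 0.100 over 20838 probes and 0.0292 with the block), so both probes moved alike.

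Tkt encodes transketolase, which moves carbon units between sugars in the non-oxidative branch. The log2 signal of Tkt was 15.70, 16.11, 15.99 and 17.05 on WT1 to WT4 and 15.35, 15.40, 15.21 and 16.65 on KO1 to KO4. Number 4 stood far above the others in both genotypes, so the genotypes overlapped. The mean was 16.21 ± 0.58 in WT and 15.65 ± 0.67 in KO (SD, n = 4 each), a difference of -0.56 (SE 0.38, limma adjusted p = 0.321), or 1.47-fold. The pair differences were -0.35, -0.70, -0.79 and -0.40, and with the block Tkt was called lower (SE 0.12, limma adjusted p = 0.0334). The other probe of Tkt, A_52_P624447, gave a smaller difference of -0.34 (SE 0.26) and was not called in either fit (limma adjusted p = 0.376 over 20838 probes and 0.192 with the block).

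Taldo1 encodes transaldolase, the other sugar-shuffling enzyme of the non-oxidative branch. The arrays gave it a log2 signal of 16.12, 16.16, 16.14 and 16.67 on WT1 to WT4 and 16.19, 15.91, 16.22 and 16.55 on KO1 to KO4. The genotypes lay on top of each other, with number 4 highest in both. The difference was -0.05 (SE 0.18, limma adjusted p = 0.846; with the block SE 0.11, adjusted p = 0.737), and the pair differences were 0.07, -0.25, 0.08 and -0.12. Its mean was 16.27 ± 0.27 in WT and 16.22 ± 0.26 in KO (SD, n = 4 each). Taldo1 thus had the smallest difference of the 7 and was the only member whose sign turned when single arrays were left out.

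Idh1 encodes the cytosolic, NADP-dependent isocitrate dehydrogenase. Its log2 signal was 8.65, 8.57, 8.71 and 8.48 on WT1 to WT4 and 8.94, 8.89, 9.13 and 8.80 on KO1 to KO4. All KO arrays lay above all WT arrays with a gap of 0.10, and the arrays ranked in the same order by number (3, 1, 2, 4) in both genotypes. The mean was 8.60 ± 0.10 in WT and 8.94 ± 0.14 in KO (SD, n = 4 each), a difference of 0.34 (SE 0.11), or a KO signal 1.26-fold that of WT. The pair differences were 0.29, 0.32, 0.42 and 0.32. Idh1 was not called after adjustment, either without the block (limma adjusted p = 0.0600) or with it (adjusted p = 0.0555).

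Me1 encodes cytosolic malic enzyme, which forms NADPH as it turns malate into pyruvate. For Me1 the log2 signal was 13.44, 13.81, 13.22 and 14.66 on WT1 to WT4 and 13.30, 13.22, 13.08 and 14.06 on KO1 to KO4. Number 4 was again highest in both genotypes, and the genotypes overlapped. The mean was 13.78 ± 0.63 in WT and 13.42 ± 0.44 in KO (SD, n = 4 each), a difference of -0.37 (SE 0.33, limma adjusted p = 0.455), or 1.29-fold. The pair differences were all below 0 (-0.14, -0.59, -0.14 and -0.60), and Me1 was not called with the block (SE 0.13, limma adjusted p = 0.0963).

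**Figure D2:**
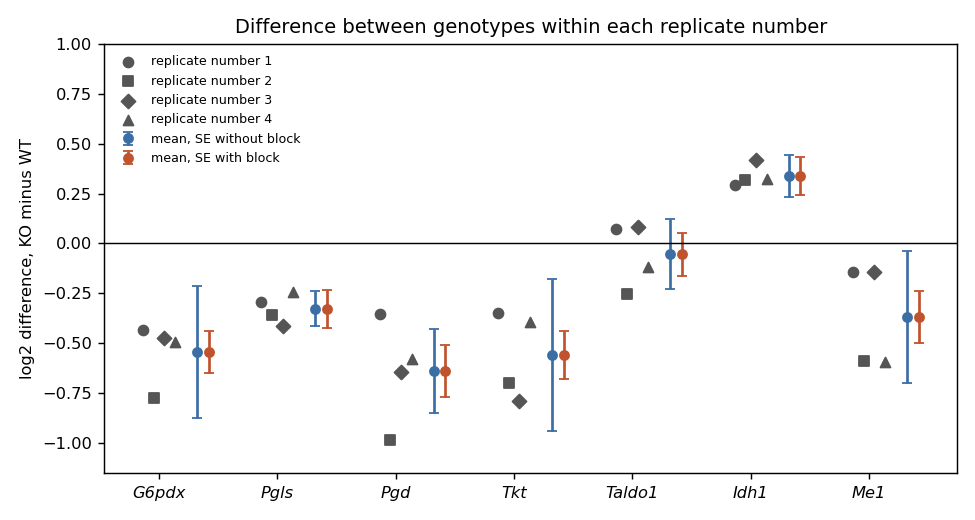
Log2 difference (KO minus WT) of each measured enzyme within replicate numbers 1 to 4 (grey symbols), with the mean difference and its SE from limma without (blue) and with (orange) the replicate block. The grey symbols of G6pdx, Pgls, Pgd, Tkt and Me1 lie below 0 and those of Idh1 above it, and the block shortens the SE of G6pdx from 0.33 to 0.11 and of Tkt from 0.38 to 0.12 while that of Pgls stays close to 0.09.

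The blocked calls of G6pdx, Pgd and Tkt were mostly lost with fewer pairs, while their differences stayed of like size. With number 1 left out, Pgd and Tkt were called (limma adjusted p = 0.0409 and 0.0497) and G6pdx was not (0.0516). With number 2, 3 or 4 left out, 0 members were called. Over these 4 blocked fits the difference lay between -0.58 and -0.47 for G6pdx, between -0.74 and -0.53 for Pgd and between -0.63 and -0.48 for Tkt. The signs of G6pdx, Pgls, Pgd, Tkt, Idh1 and Me1 were the same in all 24 alternatives computed. A change of filter, test or block left each of these differences as it was, so those alternatives could not turn a sign. For Pgls and Idh1, whose genotypes did not overlap, leaving arrays out could not turn it either.

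**Figure D3:**
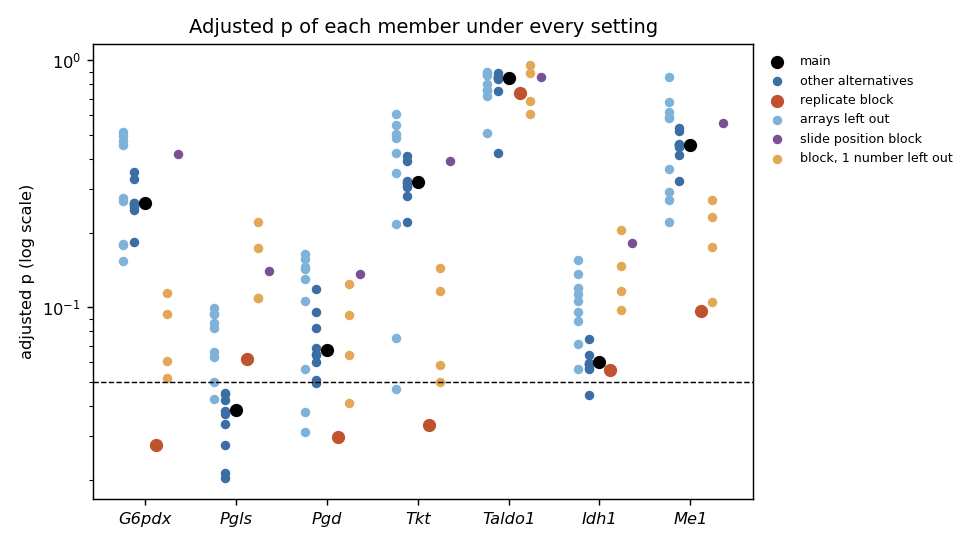
Adjusted p (log axis) of each measured enzyme without the block (black), with the replicate block (large orange), with arrays left out, with other processing and with the position on the slide as a block; the dashed line marks 0.05. Pgls lies under the line without the block and above it with the block, and G6pdx and Tkt lie the other way round.

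The spread within a genotype followed the replicate number. The mean of the members, each centred on its own mean over the 8 arrays, was -0.11, 0.23, -0.05 and 0.55 on WT1 to WT4 and -0.29, -0.25, -0.33 and 0.25 on KO1 to KO4. WT4 stood above all other arrays, and KO4 stood above WT1, WT2 and WT3. WT4 and KO4 were the highest arrays of their genotype for G6pdx, Pgd, Tkt, Taldo1 and Me1 and the lowest for Idh1 and Pgls. G6pdx ranked the numbers in the order 4, 2, 1, 3 in both genotypes, and Idh1 in exactly the opposite order.

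After removing the genotype means, Pearson's r over the 8 arrays was 0.93 between Tkt and Me1, 0.91 between Pgd and Tkt, 0.87 between Pgd and Me1, 0.83 between G6pdx and Pgd and 0.81 between G6pdx and Me1. Idh1 ran opposite to G6pdx (r = -0.87) and to Me1 (r = -0.83), and Pgls ran opposite to Me1 (r = -0.80). These values come from 21 pairs and are given as a description, since the points share arrays, normalization and replicate numbers. The lowest r among G6pdx, Pgd, Tkt and Me1 was 0.75, between G6pdx and Tkt, so these genes formed a group that varied together. Taldo1 joined it through Tkt (r = 0.87), Me1 (r = 0.87) and Pgd (r = 0.78) but less through G6pdx (r = 0.46). The edge of the group was therefore not sharp for Taldo1, while Pgls and Idh1 stood outside it.

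The 5 genes outside the set whose signals were most like the mean of the members over the 8 arrays were Gsdmc (r = 0.993), Gsdmc2 (r = 0.991), Nf2 (r = 0.990), Ppia (r = 0.983) and Gsdmc3 (r = 0.982). They were picked as the highest r among all genes tested, with the genotype difference included. Such high values and lower KO means therefore follow in part from the choice. Gsdmc, Gsdmc2 and Gsdmc3 are gasdermin C genes, close copies that a probe may not tell apart. Ppia, which encodes cyclophilin A and often serves as a reference gene, read 13.94, 14.41, 14.02 and 14.61 on WT1 to WT4 and 13.75, 13.92, 13.80 and 14.31 on KO1 to KO4. Numbers 4 and 2 were its high arrays in both genotypes, as for G6pdx, and it was not called in either fit (difference -0.30, SE 0.19, limma adjusted p = 0.279, and 0.0881 with the block). Gsdmc was called lower with the block alone (difference -0.99, SE 0.62, limma adjusted p = 0.283, and 0.0384 with the block), as were Gsdmc2 (adjusted p = 0.246, and 0.0324) and Gsdmc3 (0.163, and 0.0476). Nf2 was not called in either fit (difference -0.13, SE 0.11, limma adjusted p = 0.441, and 0.364 with the block).

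**Figure D4:**
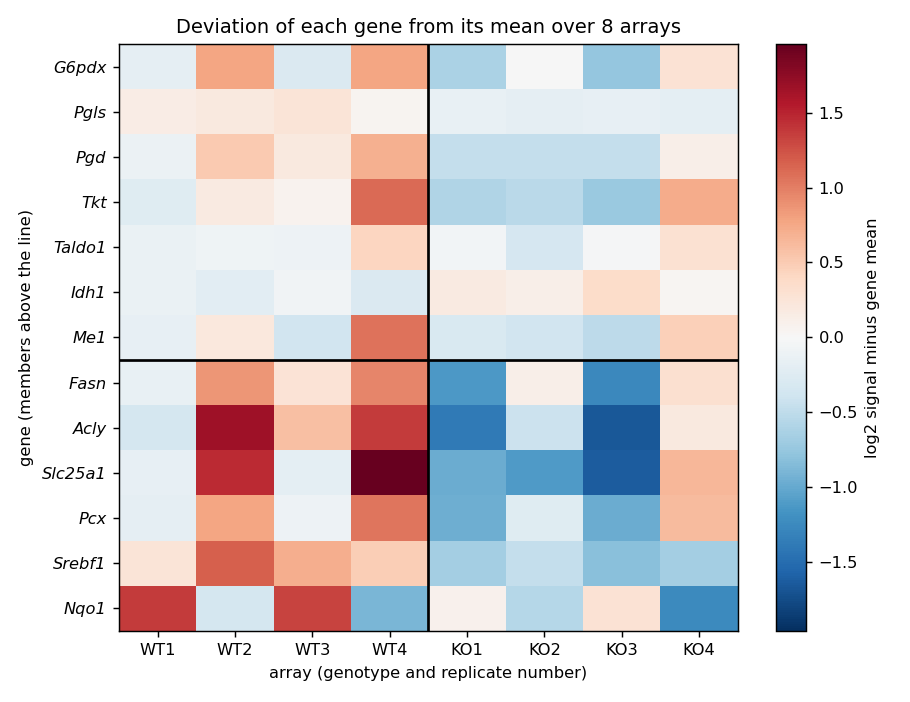
Log2 signal minus the mean of the gene over the 8 arrays, for the 7 members (above the black line) and 6 neighbouring genes, with arrays in columns and the 2 genotypes parted by the vertical line. G6pdx, Pgd, Tkt and Me1 are red on WT4 and KO4 along with Slc25a1 and Pcx, while Nqo1 is blue on both.

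Neighbouring enzymes were read from lists of 48 genes, of which 43 were tested. Of these, 9 were called lower and 0 higher, against 8.96% and 7.53% of all genes. With the block 20 were called lower and 0 higher, against 10.8% and 8.75% of all genes. At an unadjusted limma p under 0.05, 1 gene was higher without the block (Nadk2) and 1 with it (H6pd). After Benjamini-Hochberg adjustment the methods' t-test called 0 higher.

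Genes that feed or branch from the pentose phosphate pathway had a median log2 difference of -0.39. Of 12 tested, 2 were called lower without the block and 4 with it, against 8.96% and 10.8% of all genes. Prps1, which makes phosphoribosyl pyrophosphate from the ribose phosphate of the pathway, was lower on every KO array than on every WT array (difference -0.45, SE 0.11, limma adjusted p = 0.0290). Rbks, ribokinase, was lower as well (-0.62, SE 0.17, adjusted p = 0.0396), though not with the block (adjusted p = 0.0603). Hk2, the hexokinase that makes glucose 6-phosphate, was called with the block alone (-0.79, SE 0.24, adjusted p = 0.0542, and 0.0172 with the block). Dera, which cleaves deoxyribose phosphate, was not called in either fit (-0.42, SE 0.14, adjusted p = 0.0742 and 0.0671). G6pd2, an intronless relative of G6pdx whose probe may also catch G6pdx transcripts, read 6.96, 7.94, 6.67 and 8.32 on WT1 to WT4 and 6.59, 7.05, 6.34 and 7.64 on KO1 to KO4, the same array order as G6pdx. It was called lower with the block alone (difference -0.57, SE 0.41, limma adjusted p = 0.355, and 0.0400 with the block). H6pd, the hexose-6-phosphate dehydrogenase of the endoplasmic reticulum, was not called in either fit (0.43, SE 0.20, limma adjusted p = 0.153, and 0.0692 with the block). Tktl1 and Tktl2, the transketolase-like genes, were not well above background.

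The list of other possible sources of NADPH and the NAD kinases had a median difference of -0.01. Which cofactor these enzymes used in the gland was not measured. Of 9 tested, 3 were called lower in both fits, against 8.96% of all genes without the block and 10.8% with it. The 3 belong to the folate pathway, as does Aldh1l1, the cytosolic formyltetrahydrofolate dehydrogenase, which differed by -0.01 (SE 0.40, limma adjusted p = 0.989). Mthfd2, the mitochondrial methylenetetrahydrofolate dehydrogenase, read 7.92, 7.68, 8.12 and 7.40 on WT1 to WT4 and 6.19, 6.20, 6.41 and 6.74 on KO1 to KO4. No KO array reached the WT range (difference -1.40, SE 0.19, limma adjusted p = 0.00699). Mthfd1, its cytosolic relative, differed by -1.16 (SE 0.22, adjusted p = 0.0171), and Aldh1l2, the mitochondrial formyltetrahydrofolate dehydrogenase, by -0.73 (SE 0.17, adjusted p = 0.0289). Nadk2, the mitochondrial NAD kinase, was not called (0.35, SE 0.12, adjusted p = 0.0777). Mitochondrial Idh2 differed by 0.15 (SE 0.16, adjusted p = 0.544), in the same direction as Idh1 with a smaller size.

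The carriers and enzymes that supply citrate and malate had a median difference of -0.29. Of 9 tested, 1 was called lower without the block and 4 with it, against 8.96% and 10.8% of all genes. Slc25a1, the citrate carrier of the mitochondrial membrane, ranged from 12.79 to 14.94 in WT and from 11.35 to 13.62 in KO, with number 4 highest in both. Its arrays rose and fell with the members' mean (r = 0.97 over 8 arrays and 0.97 within genotypes), as did those of Pcx, pyruvate carboxylase (r = 0.95 and 0.93). Slc25a1 differed by -1.54 (SE 0.63, limma adjusted p = 0.115, and 0.0241 with the block) and Pcx by -0.77 (SE 0.42, adjusted p = 0.216, and 0.0202 with the block). Acly, which cleaves citrate to acetyl-CoA, differed by -1.63 (SE 0.53, adjusted p = 0.0639, and 0.0165 with the block). Cs, citrate synthase, was called in both fits (-0.60, SE 0.17, adjusted p = 0.0446, and 0.0272 with the block).

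Genes whose products consume NADPH had the lowest median of the 4 lists (-0.97). Of 13 tested, 3 were called lower without the block and 9 with it, against 8.96% and 10.8% of all genes. Sqle, squalene epoxidase, differed by -1.85 (SE 0.36, limma adjusted p = 0.0182) and Hsd17b12, a ketoreductase of fatty acid elongation, by -0.76 (SE 0.16, adjusted p = 0.0228). Cyp51, the sterol demethylase, was called with the block alone (-1.73, SE 0.62, adjusted p = 0.0852, and 0.0325). Fasn, fatty acid synthase, read 17.62, 18.63, 18.03 and 18.73 on WT1 to WT4 and 16.64, 17.88, 16.51 and 18.08 on KO1 to KO4. Its difference of -0.97 (SE 0.41) was called with the block alone (adjusted p = 0.128, and 0.0216).

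Known regulators of these genes, and Slc2a1 as a neighbour of the pathway, did not all move alike. Srebf1, which encodes the lipogenic factor SREBP-1, was lower on every KO array (15.39, 16.31, 15.85 and 15.62 on WT1 to WT4, 14.47, 14.66, 14.32 and 14.47 on KO1 to KO4; difference -1.31, SE 0.19, limma adjusted p = 0.00880). Within genotypes it did not follow the members' mean closely (r = 0.14 over 8 arrays). Slc2a1, the glucose transporter GLUT1, was also lower on every KO array (difference -0.89, SE 0.15, adjusted p = 0.0140). Nfe2l2, which encodes NRF2, differed by 0.17 (SE 0.14, adjusted p = 0.434).

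Nqo1, a quinone reductase and a widely used target gene of NRF2, read 9.58, 7.86, 9.53 and 7.31 on WT1 to WT4 and 8.29, 7.65, 8.49 and 6.96 on KO1 to KO4. Numbers 1 and 3 were its high arrays in both genotypes, the reverse of G6pdx, and its r with the members' mean within genotypes was -0.93. Its difference of -0.72 (SE 0.57) was not called without the block (adjusted p = 0.390) or with it (adjusted p = 0.0610).

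Markers of cell types, the luminal epithelium among them, moved with genotype as well. Their counts below are without the block unless stated, a fit that called 7.53% of all genes higher and 8.96% lower. The summed linear signal of 10 luminal epithelial markers ranged from 227495 to 287433 in WT and from 291816 to 341111 in KO. This sum ran opposite to most members, but the markers were mixed, with 7 higher and 3 lower in mean. Of them 5 were called higher (Krt18, Epcam, Cldn3, Cldn4 and Cdh1) and 1 lower. The 1 was Muc1 (difference -0.78, SE 0.22, limma adjusted p = 0.0466). Elf5 was lower but not called (-0.35, SE 0.14, adjusted p = 0.107). The summed signal of 9 measured adipocyte markers, a cell type that also makes fat, ranged from 295733 to 411550 in WT and from 416557 to 582852 in KO (2 called higher, 0 lower). That of 8 measured neutrophil markers ranged from 67443 to 100764 in WT and from 169434 to 270649 in KO (3 called higher, 0 lower). Elane was not well above background. Nearly all of the neutrophil sum was Ltf (65673 to 96898 in WT, 161491 to 251737 in KO), which encodes lactoferrin, a milk protein that mammary epithelium also makes. Without Ltf the sum of the other 7 ranged from 1770 to 7708 in WT and from 7871 to 18912 in KO. Most of that sum was S100a8 and S100a9, neither called without the block (limma adjusted p = 0.357 and 0.0566). With the block S100a9 was called higher (limma adjusted p = 0.0459). Besides Ltf, Camp and Ngp were the markers called higher without the block. Camp read 1.51 to 2.49 in WT and 6.03 to 7.58 in KO (log2), and Ngp 1.93 to 3.78 and 5.66 to 7.26. Their WT values are near the floor, so both genes may have been tested through KO alone, where they are high. Csf3r (0.08), Mpo (0.24) and Mmp9 (-0.15) had log2 differences near 0 and were not called. Fibroblast markers overlapped narrowly (174139 to 219673 in WT, 214877 to 319072 in KO; 1 of 6 called higher), and macrophage markers overlapped fully (8871 to 11700 and 7832 to 12136; 0 of 7 called). Other lists leaned the way of most members. All 7 T cell markers had lower means in KO (Cd3e and Cd4 called, and Cd3e alone with the block), with sums of 586 to 1560 in WT and 628 to 824 in KO, and of 8 basal markers Krt17 was called lower, with sums of 93353 to 141550 and 83949 to 125316. Endothelial markers overlapped (7673 to 9507 and 6427 to 8939; 0 of 6 called). Within genotypes, over 8 arrays, the r of the members' mean was -0.82 with the luminal sum, -0.75 with the macrophage sum, -0.66 with the fibroblast sum, -0.39 with the adipocyte sum, -0.28 with the neutrophil sum, -0.28 with the basal sum, -0.25 with the T cell sum and 0.54 with the endothelial sum. The part of these cells in the members' differences was not tested.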

How the data were processed

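Mammary gland RNA from 8 dams (4 WT, 4 KO) was measured on Agilent 4x44K arrays, 1 dam per array. Genotype and replicate number came from the sample labels. The authors deposited the scanner intensities of Agilent Feature Extraction 10.7 (per the labels), already background-subtracted within each array, and a table of log2 values that they had quantile-normalized in GeneSpring. Each column of that table followed the log2 scanner values of its array (lowest r 0.999, median 6.32). Its scale is therefore log2, and it entered a single alternative.

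The log2 of the processed intensities was quantile-normalized between arrays with limma 3.58.1 (R 4.3.3). Control spots and outlier spots (64 to 100 per array) were left out, no spot was saturated, and spots of a probe were averaged, leaving 41174 probes. A probe was kept if, in WT or in KO, all 4 arrays read it well above background. Symbols came from the probe accessions through a RefSeq gene table (27479 probes matched), and the brightest probe stood for a gene. A log2 difference was tested with limma and Benjamini-Hochberg adjustment over 14137 genes. Arrays of the same replicate number correlated in their deviations from the genotype means (r = 0.219, 0.165, 0.304 and 0.283 for numbers 1 to 4). For this reason the blocked fit treated the number as pairing the arrays. The mean r between different numbers was -0.0788. Deviations cancel over the arrays of a genotype, so that mean largely follows from the same-number values and is not a separate check. The methods call the replicates independent and biological.

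The members, gene lists and marker lists were chosen with earlier results of these data known. From each neighbour list the 4 genes with the smallest p were named, of which 1 is not reported here, with Zbtb7b, Srebf1, Nfe2l2, Nqo1, Slc2a1 and the 5 genes most like the members' mean; G6pd2, H6pd, Aldh1l1, Idh2, Fasn, Tktl1 and Tktl2 were added after their values were seen. Alternatives covered scaling, background, filter, probe choice, test, block and arrays left out. The normexp alternative (offset 50) used the median spot signal, since the deposited files used here gave no mean signal. The number of arrays limits the precision. The design of the array names mouse build mm9, so coordinates are given for the RefSeq windows alone.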

Additional observations from a re-analysis of the deposited data

Results flagged for a closer look

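In 4 of 66 groups of 4 arrays looked at, 1 array stood apart from the other 3 beyond Dixon's critical value, and chance gives about 1 in 20 such groups. KO4 stood above the other KO arrays for Pgd (log2 signal 13.65, others 13.06 to 13.08), for Tkt (16.65, others 15.21 to 15.40) and for Nf2 (9.16, others 8.90 to 8.94). WT4 stood above the other WT arrays for Taldo1 (16.67, others 16.12 to 16.16). These arrays carry the same replicate number. With number 4 left out of both genotypes, without the block, Tkt was the member called (an alternative chosen after seeing the data).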

How the results depend on the processing

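Over 168 values of single members under 24 alternatives, 142 kept their direction and side of the threshold, 13 lost a call, 10 gained one and 3 turned sign. The 3 were of Taldo1, whose values ranged from -0.16 (without KO4) to 0.078 (without WT4) with single arrays left out, with 0.049 without KO2, and which was 0.012 with the replicate block and number 2 left out. The members called (1, Pgls) were 3 with normexp (Idh1, Pgd and Pgls), 3 with the replicate block (G6pdx, Pgd and Tkt), and 0 to 2 with single arrays left out, at 0 without WT2, WT3, KO1, KO2 or KO3. All genes called (2331) fell to 1389 with the methods' t-test after Benjamini-Hochberg adjustment. Single arrays left out gave 516 (without KO3) to 3079 (without WT1). Of the neighbours, 9 were called, 5 with the t-test, 20 with the replicate block and 1 to 15 with single arrays left out. Scaling to the 75th percentile put 58.9% of calls on the lower side, against 54.3%.

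Alternatives added after seeing the data took the position on the slide as a block, which left 137 genes, 0 members and 1 neighbour called, or left 1 number out of the replicate block. Without number 1, 2 members were called. Without number 2, 274 genes, 0 members and 2 neighbours were called; without number 3, 81, 0 and 0; without number 4, 0 members and 17 neighbours. The cause was not tested. These fits hold fewer arrays or residual degrees of freedom. Slide and genotype cannot be told apart under any of them. The members are all well above background, so the filter on dim probes left their differences as they were. It did bear on their adjusted p through the fit and adjustment over all genes. Without it the limma adjusted p was 0.0444 for Pgls, 0.0960 for Pgd and 0.0742 for Idh1.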
